A study of Homo sapiens with 6 samples.

Results

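The 10 genes described here are MT1A, MT1E, MT1F, MT1G, MT1M, MT1X, MT2A, MTF1, SLC30A1 and SLC39A14, taken by gene symbol out of 58735 genes in the count table. All 10 symbols were found. They were chosen with the difference between the same libraries already known, so their values in that contrast are a description and carry no test.

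Metallothioneins are small, cysteine-rich proteins that bind zinc, copper and cadmium in the cytosol. The transcription factor MTF1 senses free zinc and turns on metallothionein genes and SLC30A1, the zinc exporter of the plasma membrane, by binding metal response elements. SLC39A14 (ZIP14) carries zinc, iron and manganese into hepatocytes. In liver both it and the metallothioneins are known to be induced by inflammatory cytokines of the interleukin-6 family. The metallothioneins are also known to be induced by glucocorticoids.

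The libraries came from HepaRG, a human hepatic progenitor cell line, differentiated with 1.8% DMSO. They were transfected with siRNA, kept for 48 h and then loaded for 24 h with fatty acids, palmitic acid at 400 µM together with oleic acid at 800 µM. The series aimed its siRNAs at PTPRD, a receptor tyrosine phosphatase, and at STAT3, the transcription factor that the series title names as its substrate. The 3 libraries labelled PTPF were set against the 3 labelled STATF, names that the labels do not spell out, and all 6 share the cell line and the fatty acids. Control-siRNA libraries were not analysed here, so each difference lies between those labels only. Below, rose and fell mean higher and lower with the PTPF label than with the STATF label. Which label changed cannot be told without a control. The labels do not say whether the libraries of a label were separate cultures, so p-values reflect variation among these libraries alone, and that variation may be technical.

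Total counts ran from 33225627 to 40796767 per library. STAT3 stood at 443 ± 12.2 CPM (counts scaled to a common library size by TMM) with the PTPF label and 119 ± 10.6 CPM with the STATF label (SD, n = 3 each). For PTPRD the levels were 11.5 ± 1.36 CPM with the PTPF label and 11.5 ± 0.602 CPM with the STATF label, with a log2 fold change of 0.00 (edgeR adjusted p = 0.999), so its level did not set the labels apart. Summed hepatocyte markers (ALB, APOA1, TTR, SERPINA1, HNF4A, ASGR1 and CYP3A4, all detected) reached 36936 to 43603 CPM with the PTPF label and 33988 to 34897 CPM with the STATF label, with 2 of the 7 higher and 3 lower. SERPINA1 (means of 23719 CPM with the PTPF label and 14451 CPM with the STATF label) and ASGR1 were higher. ALB (11995 and 14853 CPM in the same order), APOA1 and CYP3A4 were lower, so the higher sum does not describe most of these genes. Markers of biliary and progenitor cells summed to 264 to 297 CPM with the PTPF label and 246 to 266 CPM with the STATF label, and EPCAM among them was at 0 counts in every library. Of their 4 tested genes CD24 was higher, and it made up most of the sum, while KRT19 and SOX9 were lower. Stellate and mesenchymal markers summed to 24.1 to 27.3 CPM with the PTPF label and 31.4 to 33.8 CPM with the STATF label, with 1 of 3 tested genes (ACTA2) lower. Immune and endothelial markers summed to 48.4 to 54 CPM with the PTPF label and 64.5 to 69.2 CPM with the STATF label. Of their 3 tested genes the endothelial KDR was lower and the monocyte marker CD14 higher, and PTPRC had 1 count with the PTPF label and 0 with the STATF label. The part of these marker shifts in the values below was not tested, and in bulk RNA fewer cells of a type cannot be told apart from less RNA per cell.

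The 7 metallothionein genes lie within 76 kb of chromosome 16, from 56608199 to 56684196 of GRCh38, with MT2A (chr16:56608199-56609497) at one end and MT1X (chr16:56682424-56684196) at the other. MT1E (chr16:56625475-56627112), MT1M (chr16:56632233-56633986), MT1A (chr16:56638666-56640087), MT1F (chr16:56657694-56660698) and, on the minus strand, MT1G (chr16:56666731-56668065) lie between them. SLC30A1 (chr1:211571568-211578742) and MTF1 (chr1:37809567-37859620) lie on chromosome 1. These are positions in the count table. The metallothionein coding sequences are close relatives, which matters for how reads were shared out between them. In GENCODE release 29 each of the 7 holds 20 cysteine codons among 61 codons, or 62 in MT1G. Coding identity ranged from 88.7% to 94.6% over the 15 pairs of equal length, and the longest run of bases that mRNAs of 2 of these genes share ranged from 32 to 96. The coding sequences of the 3 most abundant genes follow from start to stop codon, with capitals at the 22 of 186 positions at which the 3 are not all alike.
MT2A: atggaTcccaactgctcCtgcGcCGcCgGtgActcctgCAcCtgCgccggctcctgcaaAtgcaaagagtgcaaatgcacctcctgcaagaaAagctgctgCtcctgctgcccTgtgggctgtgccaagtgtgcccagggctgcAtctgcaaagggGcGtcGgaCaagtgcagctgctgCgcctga
MT1E: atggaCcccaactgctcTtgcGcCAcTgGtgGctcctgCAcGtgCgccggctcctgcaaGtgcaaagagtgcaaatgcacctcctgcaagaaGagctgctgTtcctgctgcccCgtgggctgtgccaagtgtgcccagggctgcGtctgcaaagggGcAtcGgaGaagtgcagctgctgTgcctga
MT1X: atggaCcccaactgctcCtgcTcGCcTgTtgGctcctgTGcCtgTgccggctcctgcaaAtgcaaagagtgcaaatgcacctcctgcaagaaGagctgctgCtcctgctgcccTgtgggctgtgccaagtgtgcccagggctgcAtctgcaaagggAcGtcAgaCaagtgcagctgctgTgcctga
How reads that match several genes were counted is not given in the sources used here, so the division of counts between these genes is uncertain, and their sum less so.

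Promoters of 4 of the 10 genes, MT2A, MT1X, SLC30A1 and MTF1, were matched in the RefSeq promoter table (GRCh38.p14, 250 bases before to 50 after the start site). They were searched on both strands for the core of the metal response element, TGCACNC or TGCGCNC, which 29.6% of 35116 promoters of the same length held at least once. The MT2A promoter held 8 matches, a number that 7 promoters in all reached or passed (0.0199%). MT1X held 4 (4 or more in 0.601% of promoters), SLC30A1 held 2 (2 or more in 8.6%) and MTF1 held 0. MT1H, a metallothionein of the same cluster that had no read in any library, also held 8. The sequences below show the matches in capitals on the strand of the gene, MT2A from chr16:56608334-56608633 (plus), MT1X from chr16:56682220-56682519 (plus), MT1H from chr16:56669564-56669863 (plus) and SLC30A1 from chr1:211579112-211579411 (minus).
MT2A: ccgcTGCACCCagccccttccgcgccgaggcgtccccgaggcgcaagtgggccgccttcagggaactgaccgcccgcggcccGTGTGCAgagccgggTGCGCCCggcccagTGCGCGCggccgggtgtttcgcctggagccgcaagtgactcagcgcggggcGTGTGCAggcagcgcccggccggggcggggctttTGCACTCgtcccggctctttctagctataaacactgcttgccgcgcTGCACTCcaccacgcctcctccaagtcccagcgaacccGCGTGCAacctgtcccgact
MT1X: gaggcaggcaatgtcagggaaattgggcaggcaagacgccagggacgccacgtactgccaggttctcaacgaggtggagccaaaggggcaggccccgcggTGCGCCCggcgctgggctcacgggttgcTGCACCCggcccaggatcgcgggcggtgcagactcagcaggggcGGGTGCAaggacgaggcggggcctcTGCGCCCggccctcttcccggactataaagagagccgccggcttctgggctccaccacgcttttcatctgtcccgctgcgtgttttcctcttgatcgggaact
MT1H: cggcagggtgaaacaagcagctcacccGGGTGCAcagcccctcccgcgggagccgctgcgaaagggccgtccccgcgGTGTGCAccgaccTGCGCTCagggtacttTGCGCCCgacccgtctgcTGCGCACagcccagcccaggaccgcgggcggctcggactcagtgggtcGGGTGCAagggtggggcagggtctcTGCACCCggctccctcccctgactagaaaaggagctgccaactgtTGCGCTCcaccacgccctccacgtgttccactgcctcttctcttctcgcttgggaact
SLC30A1: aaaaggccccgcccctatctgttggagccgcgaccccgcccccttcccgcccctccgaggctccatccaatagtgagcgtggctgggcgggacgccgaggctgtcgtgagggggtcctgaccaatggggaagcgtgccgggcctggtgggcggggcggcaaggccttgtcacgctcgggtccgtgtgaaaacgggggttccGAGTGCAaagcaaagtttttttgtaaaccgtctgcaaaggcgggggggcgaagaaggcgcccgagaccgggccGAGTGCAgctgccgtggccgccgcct
The STAT-type palindrome TTCNNNGAA, found in 7.66% of promoters, matched once in MT2A and in none of the MT1X, SLC30A1 and MTF1 windows, and the match shared no base with a metal response element core. The promoter of MT4, a metallothionein that had no read in any library, also held 1 match. A match describes letters in the window and is not evidence of binding.

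MT2A, a widely expressed isoform, stood at 3687, 3027 and 3258 CPM with the PTPF label and at 1482, 1380.0 and 1614 CPM with the STATF label. Every PTPF-labelled library lay above every STATF-labelled one, and the fitted log2 fold change was 1.16 (SE 0.074), or 2.23-fold.

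MT1E, an inducible isoform, stood at 923, 812 and 798 CPM with the PTPF label and at 330.1, 345 and 372 CPM with the STATF label. MT1X, which responds to metals as MT2A does, stood at 439, 409 and 421 CPM with the PTPF label and at 164, 177 and 195 CPM with the STATF label. Neither gene's labels overlapped, and the log2 fold changes were 1.27 (SE 0.065) for MT1E and 1.24 (SE 0.062) for MT1X. Of the exon bases of MT1X, 18.1% also belong to the annotated transcript AC026461.1, which had 0 counts in all 6 libraries. How reads in shared bases were counted is not given, so MT1X may have lost some of them all the same.

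MT1A and MT1F were expressed at far lower levels. MT1A stood at 19.9, 16.9 and 15.1 CPM with the PTPF label and at 4.66, 5.81 and 5.85 CPM with the STATF label. Its log2 fold change of 1.67 (SE 0.109), or 3.18-fold, was the largest among the metallothioneins that could be fitted, on 1772 counts over the PTPF-labelled and 636 over the STATF-labelled libraries. MT1F stood at 14.2, 12.5 and 13.9 CPM with the PTPF label and at 5.43, 5.23 and 5.47 CPM with the STATF label, a log2 fold change of 1.33 (SE 0.098). The labels did not overlap for either gene.

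MT1G and MT1M were close to silent. MT1G had 0 counts in the 3 PTPF-labelled libraries, and 5 counts in STATF replicate 2 and 0 in the other STATF-labelled libraries. MT1M had 2 counts in PTPF replicate 3 and 0 in every other library. Neither passed the filter on low counts, and no fold change is given for them. The upper limit behind a count of 0 is 3 counts, equal in these libraries to 0.072 to 0.0918 CPM, and it covers counting error only.

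**Figure D1:**
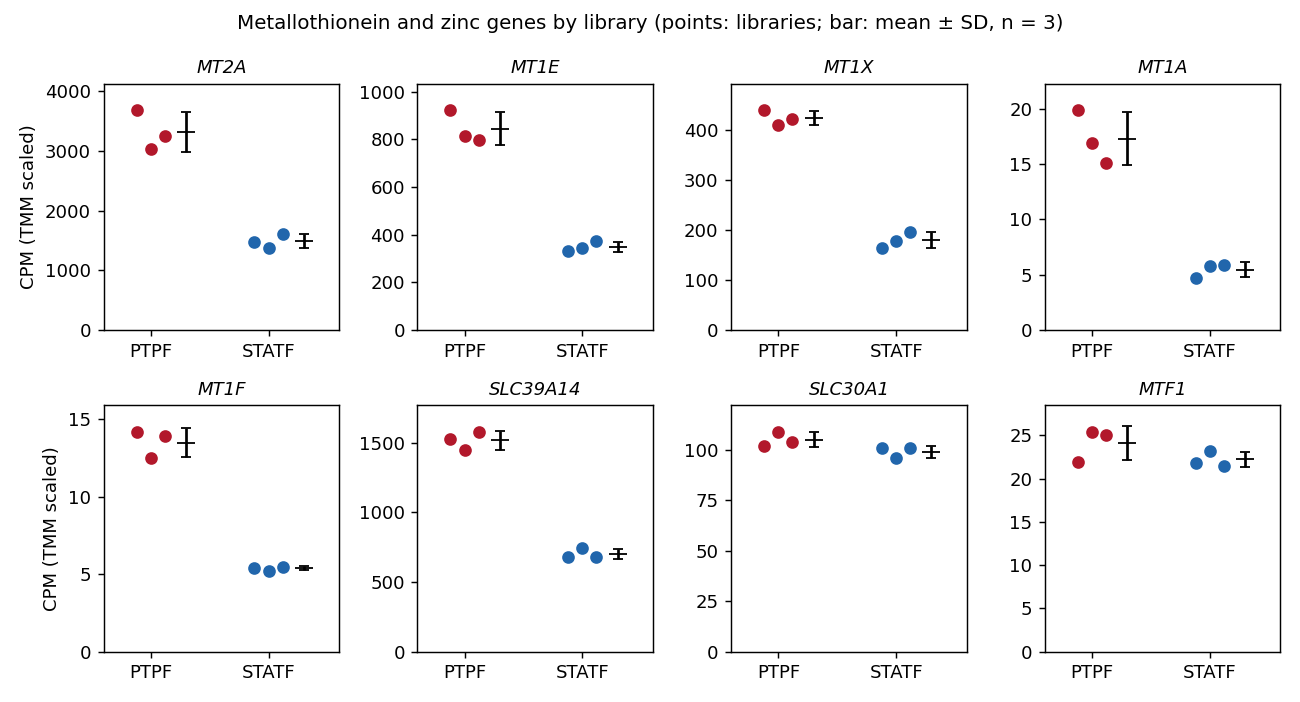
CPM of the 8 expressed genes in each library (points) with mean ± SD (bar, n = 3 per label), every vertical axis starting at 0. The 5 metallothioneins and SLC39A14 show PTPF-labelled libraries far above STATF-labelled ones, while SLC30A1 (102 to 109 against 95.8 to 101 CPM) and MTF1 (21.9 to 25.4 against 21.5 to 23.2 CPM) lie close together.

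Summed over the 7 genes, metallothionein transcripts stood at 5083, 4278 and 4506 CPM with the PTPF label and at 1986, 1912 and 2193 CPM with the STATF label. The labels did not overlap, with means of 4622 ± 415 CPM with the PTPF label and 2030.4 ± 145 CPM with the STATF label (SD, n = 3 each), a ratio of 2.28 or 1.19 on the log2 scale. They took 0.427% to 0.484% of all counts with the PTPF label and 0.195% to 0.223% with the STATF label. Within the PTPF label, replicate 1 was the highest library for each of the 5 expressed metallothioneins, and within the STATF label replicate 3 was. SLC39A14 had another order, with PTPF replicate 3 and STATF replicate 2 highest.

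MT2A supplied 71.9% ± 0.968 of metallothionein counts with the PTPF label and 73.5% ± 1.23 with the STATF label (SD, n = 3 each), with overlapping ranges. MT1E supplied 18.3% ± 0.651 with the PTPF label and 17.2% ± 0.733 with the STATF label, and MT1X 9.18% ± 0.487 and 8.8% ± 0.492 in the same order (SD, n = 3 each). The shares of MT1A did not overlap between the labels. Those of MT1F just failed to overlap, on 204 to 218 counts in each STATF-labelled library, and the division of reads between these genes is uncertain. MT1A made up 0.336% to 0.396% with the PTPF label and 0.235% to 0.304% with the STATF label, and MT1F 0.28% to 0.308% and 0.25% to 0.274% in the same order.

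Per kilobase of the deposited gene length, which allows levels to be compared between genes, the order in PTPF-labelled libraries was MT2A (2559 ± 258 CPM per kb), MT1E (803 ± 65.2), MT1X (239 ± 8.41), SLC39A14 (219 ± 9.6), MT1A (43.7 ± 6), SLC30A1 (19.2 ± 0.68), MT1F (7.16 ± 0.496) and MTF1 (3 ± 0.241; SD, n = 3 each), with no overlap between neighbours. In STATF-labelled libraries SLC39A14 (101 ± 5.51 CPM per kb) and MT1X (101 ± 8.83) overlapped, as did MT1F (2.85 ± 0.069) and MTF1 (2.76 ± 0.114). MT1A (13.7 ± 1.7) lay below SLC30A1 (18.1 ± 0.546) there, and above it with the PTPF label. MT2A ranked 20 with the PTPF label and 27 with the STATF label among 19951 protein-coding genes on this scale. The deposited length counts every annotated exon. With the length of 1 coding mRNA in its place, chosen after the data were seen, MT1X came to 940 ± 33.1 CPM per kb with the PTPF label and 397 ± 34.8 with the STATF label, and MT2A to 4229 ± 426 and 1898 ± 150 in the same order. On that scale MT1E came to 1199 ± 97.4 and 496 ± 30, and MT1F to 19.6 ± 1.36 and 7.8 ± 0.189, again with the PTPF label first. SLC30A1, MTF1 and SLC39A14 were not rescaled, so the places of MT1F and MT1X relative to them depend on the length used.

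SLC39A14, the importer, lies at chr8:22367249-22434129 in the count table. It stood at 1528, 1446 and 1578 CPM with the PTPF label and at 681, 745 and 678 CPM with the STATF label. The labels did not overlap, and the log2 fold change of 1.11 (SE 0.062), or 2.16-fold, was close to that of MT2A. SLC30A1, the exporter that MTF1 is known to switch on together with the metallothioneins, stood at 102, 109 and 104 CPM with the PTPF label and at 101, 95.8 and 101 CPM with the STATF label. Its ranges just failed to overlap, and its log2 fold change was 0.08 (SE 0.054), or 0.02 with library totals as the scaling. MTF1 itself stood at 21.9, 25.4 and 25 CPM with the PTPF label and at 21.8, 23.2 and 21.5 CPM with the STATF label, with overlapping ranges and a log2 fold change of 0.12 (SE 0.073). These are mRNA levels, and neither the activity of MTF1 nor its part in the other values was tested.

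Of the 10 genes, 8 passed the filter on low counts, and 6 of these had an edgeR adjusted p under 0.05, all higher with the PTPF label. Across the 17844 genes tested, 10.1% were called higher and 11.6% lower (21.6% in all). Labels did not overlap in 7 of the 8, all higher with the PTPF label, while over all genes tested 17.3% were apart in that direction and 18.4% in the other (35.7% in all). Since the genes were chosen from this contrast, nothing is read from these shares.

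The rest of the cluster and its neighbours were listed by family and by position. The gene lists here and below were chosen with earlier results of these data known. Most genes named from them were those with the smallest adjusted p, so their p-values are not independent findings. Of 13 other metallothionein loci, pseudogenes included, 7 had no count in any library, MT1H, MT3 and MT4 among them. The pseudogene MT1DP, with 50, 52 and 36 counts with the PTPF label and 23, 26 and 30 with the STATF label, was the 1 locus that could be tested, and it was higher with the PTPF label by 0.99 on the log2 scale (SE 0.272, edgeR adjusted p = 0.009). It did not pass a filter of at least 50 counts in 3 libraries. Of the loci below the filter, MT1JP had 15 counts with the PTPF label and 2 with the STATF label, and MT1L had 5 and 0. MT1XP1 had 0 counts with the PTPF label and 4 with the STATF label, MT1B 0 and 1, and MT1P1 1 and 1, in the same order.

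Of 12 protein-coding genes within 500 kb of the cluster, 10 could be tested, and 2 rose and 1 fell, with a median log2 fold change of 0.08 beside 0.00 for all genes tested. Over all genes tested, 10.1% were called higher and 11.6% lower with the PTPF label (21.6% in all). The count here and those of the markers and other lists stand beside these shares, and no list was tested as a set. The nearest tested neighbours were BBS2, a protein of primary cilia, 87.9 kb from the cluster at 27.2 ± 0.651 CPM with the PTPF label and 27.6 ± 1.02 CPM with the STATF label, and NUP93, a nuclear pore protein, 45.9 kb from it at 21 ± 1.58 and 18.8 ± 0.413 CPM in the same order (SD, n = 3 each). Neither passed the test, with log2 fold changes of -0.02 and 0.16. HERPUD1, an endoplasmic reticulum protein of the unfolded protein response, rose by 0.26 on the log2 scale (SE 0.056, edgeR adjusted p = 0.0011). NLRC5, an activator of MHC class I genes that interferon induces, stood at 23.6, 29.1 and 25.4 CPM with the PTPF label and at 66.4, 62.9 and 63.6 CPM with the STATF label and fell by 1.30 on that scale (SE 0.068, edgeR adjusted p = 4.18e-14). GNAO1, a G protein subunit, rose by 0.24 (SE 0.078, edgeR adjusted p = 0.0264), and the call was lost without PTPF replicate 2 (0.0838), PTPF replicate 3 (0.0657), STATF replicate 2 (0.0541) or STATF replicate 3 (0.204) and with library totals as the scaling (0.148).

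**Figure D2:**
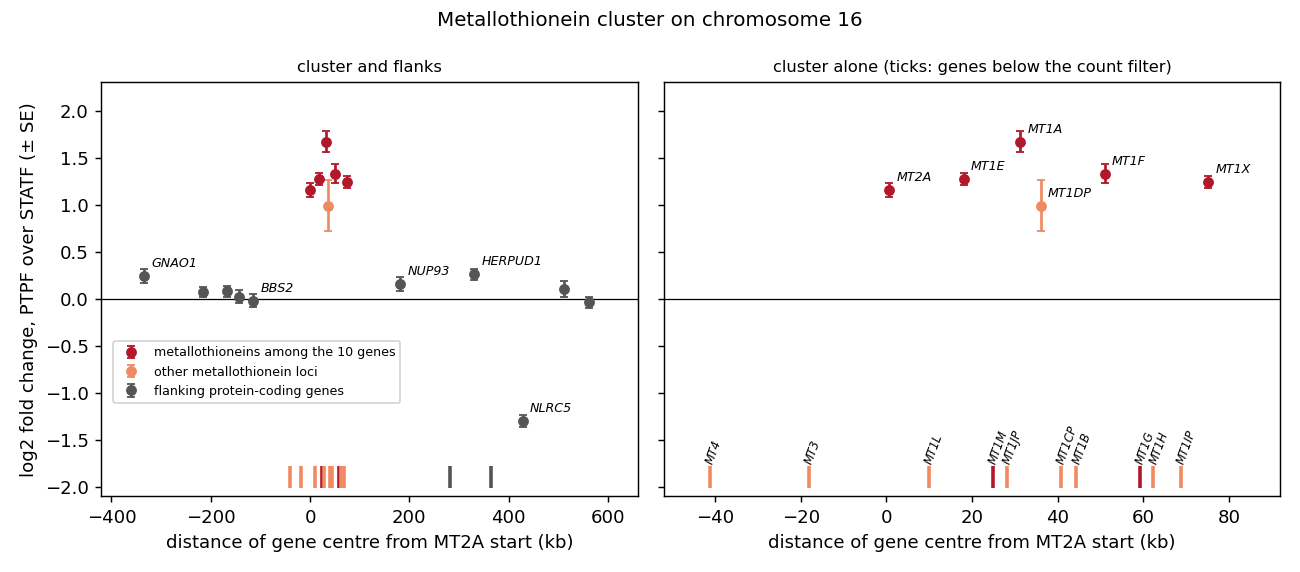
Log2 fold change of PTPF over STATF (± SE) by distance of each gene's centre from the start of MT2A, for the cluster with its flanks (left) and the cluster alone (right), with ticks at the bottom for genes below the count filter. The 5 fitted metallothioneins lie between 1.16 and 1.67, and BBS2 and NUP93 on either side lie at -0.02 and 0.16.

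Among the other SLC39 importers, 10 of 13 could be tested, and 2 rose, 2 fell and 6 did not pass, with a median log2 fold change of -0.05. SLC39A8 (ZIP8), the closest relative of SLC39A14 and likewise a carrier of zinc, iron and manganese, stood at 133, 133 and 143 CPM with the PTPF label and at 71.4, 76.7 and 76 CPM with the STATF label. The labels were well apart, and it rose by 0.86 on the log2 scale (SE 0.056, edgeR adjusted p = 3.21e-12). SLC39A7 (ZIP7), which releases zinc from the endoplasmic reticulum, rose by 0.22 (SE 0.055, edgeR adjusted p = 0.00405). SLC39A10, an importer of the plasma membrane, stood at 13.8, 16.7 and 17.9 CPM with the PTPF label and at 21.3, 21.3 and 22.3 CPM with the STATF label and fell (log2 fold change -0.42, SE 0.083, edgeR adjusted p = 0.000423). SLC39A13 (ZIP13), a carrier of the secretory pathway, fell (log2 fold change -0.30, SE 0.056, edgeR adjusted p = 0.000215).

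Another 10 genes were listed as zinc exporters by family alone (SLC30 and TMEM163), and 8 could be tested. Of these 3 rose, 1 fell and 4 did not pass, with a median log2 fold change of 0.04. TMEM163, a zinc efflux protein, stood at 3.18, 3.51 and 3 CPM with the PTPF label and at 2.21, 2.35 and 2 CPM with the STATF label, and rose by 0.56 on the log2 scale (SE 0.165, edgeR adjusted p = 0.0143). SLC30A5 and SLC30A7, which load zinc into the early secretory pathway, rose by 0.21 (edgeR adjusted p = 0.00684) and 0.20 (0.0243). Over the alternatives, the call was lost 4 times for SLC30A7 and 2 times each for SLC30A5 and TMEM163. SLC30A10, a manganese exporter, fell with a log2 fold change of -0.40 (edgeR adjusted p = 0.0457). That call was lost without PTPF replicate 1 (0.142), PTPF replicate 2 (0.106), STATF replicate 1 (0.0922) or STATF replicate 3 (0.228). Without PTPF replicate 2, STATF replicate 1 or STATF replicate 3 the list held 1 call in place of 4, and with library totals as the scaling it held 2 and had a median of -0.02.

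**Figure D3:**
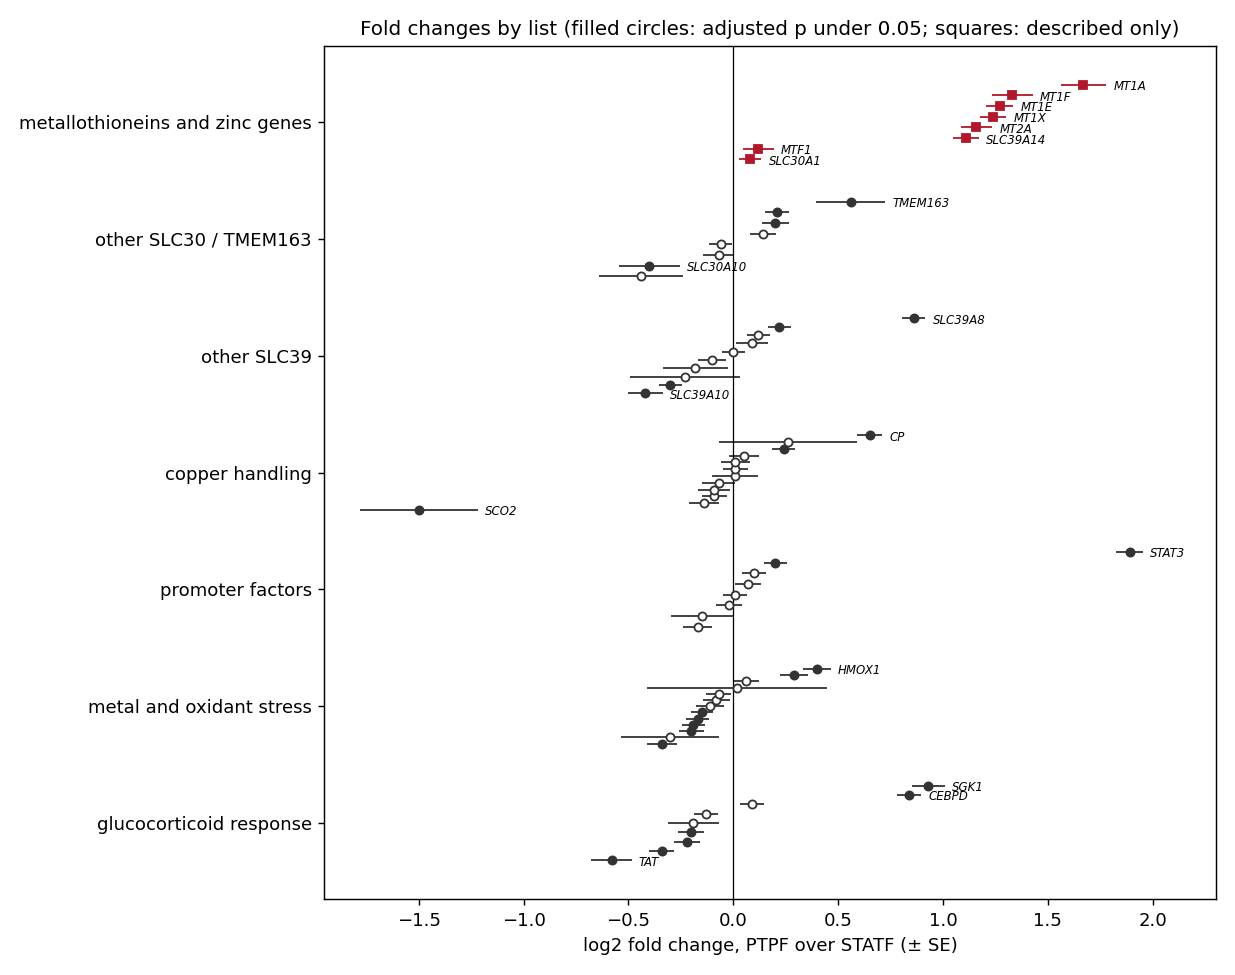
Log2 fold change of PTPF over STATF (± SE) for genes of each list that passed the count filter, with filled circles for an edgeR adjusted p under 0.05 and squares for the genes that are described only. The metallothioneins and SLC39A14 lie between 1.11 and 1.67, while the other zinc exporters lie between -0.44 and 0.56 and the other importers between -0.42 and 0.86.

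Metallothioneins also bind copper, and of 12 genes of copper handling 2 rose, 1 fell and 9 did not pass, with a median log2 fold change of 0.01. Ceruloplasmin (CP), the copper-carrying plasma ferroxidase, stood at 1117, 1154 and 1217 CPM with the PTPF label and at 704, 777 and 734 CPM with the STATF label and rose by 0.65 (SE 0.061, edgeR adjusted p = 4.3e-09), with 19.4% of its exon bases shared with HPS3. The copper importer SLC31A1 rose by 0.24 (SE 0.054, edgeR adjusted p = 0.00132). SCO2, a copper chaperone of cytochrome oxidase, had 57 counts with the PTPF label and 184 with the STATF label and fell (log2 fold change -1.50, edgeR adjusted p = 0.000236), but 83.9% of its exon bases are shared with other annotated genes and its value is uncertain.

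Of 8 factors that act at metallothionein promoters, 2 rose, none fell and 6 did not pass, with a median log2 fold change of 0.04. With library totals as the scaling 1 was higher and 1 lower (median -0.02), and without PTPF replicate 1 there were 2 higher and 1 lower. STAT3, itself a target of the siRNAs, stood at 435, 436 and 457 CPM with the PTPF label and at 114, 132 and 113 CPM with the STATF label. It was higher with the PTPF label by 1.89 on the log2 scale (SE 0.063, edgeR adjusted p = 2.47e-18), a difference between the labels only. HIF1A, the hypoxia factor, rose by 0.20 (SE 0.055, edgeR adjusted p = 0.00974), and the call was lost without STATF replicate 1 (0.0569) or STATF replicate 2 (0.0672) and with library totals as the scaling (0.0727). The glucocorticoid receptor NR3C1, named after its value was seen, stood at 57.9 ± 3.19 CPM with the PTPF label and 57.6 ± 1.22 CPM with the STATF label (SD, n = 3 each).

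Genes that metals and oxidants induce along with metallothioneins went both ways. Of 13, all of which could be tested, 2 rose, 5 fell and 6 did not pass, with a median log2 fold change of -0.11. Heme oxygenase HMOX1 stood at 78, 70.4 and 65.8 CPM with the PTPF label and at 58.4, 53.7 and 50.3 CPM with the STATF label and rose by 0.40 (SE 0.066, edgeR adjusted p = 5.19e-05). The cystine carrier SLC7A11 rose by 0.29 (SE 0.068, edgeR adjusted p = 0.00284). Sulfiredoxin SRXN1 fell with a log2 fold change of -0.34 (edgeR adjusted p = 0.000604), although 85% of its exon bases are shared with a second annotated gene. The heat shock co-chaperone DNAJB1 fell with a log2 fold change of -0.19 (edgeR adjusted p = 0.0114), which was lost without PTPF replicate 2 (0.0641) or STATF replicate 2 (0.0944). In all, 4 genes of this list passed without PTPF replicate 2, STATF replicate 1 or STATF replicate 2, 2 in each direction.

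Glucocorticoid-responsive genes were likewise split, with 2 of 9 higher, 4 lower and 3 that did not pass, and a median log2 fold change of -0.19. SGK1, a kinase that controls ion transport, stood at 24.9, 22.3 and 22.7 CPM with the PTPF label and at 11.4, 12.6 and 12.5 CPM with the STATF label and rose by 0.93 (SE 0.078, edgeR adjusted p = 4.93e-10). CEBPD, a transcription factor of the acute-phase response, rose by 0.84 (SE 0.057, edgeR adjusted p = 9.3e-12). The receptor co-chaperone FKBP5 stood at 952, 1037 and 1022 CPM with the PTPF label and at 1215, 1298 and 1289.8 CPM with the STATF label and fell (log2 fold change -0.34, SE 0.060, edgeR adjusted p = 0.000132). The tyrosine aminotransferase TAT fell (log2 fold change -0.58, SE 0.096, edgeR adjusted p = 4.95e-05).

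Across the 6 libraries, the genes whose pattern lay nearest to that of the metallothionein sum were LBP, HP, GADD45B, GALNT15 and CISH. Likeness was the Euclidean distance between centred log2 CPM values, and these 5 lay at 0.162 to 0.221, where the median of the 11712 protein-coding genes compared was 1.484. LBP, which binds bacterial lipopolysaccharide, stood at 2244, 1852 and 2045 CPM with the PTPF label and at 914, 945 and 949 CPM with the STATF label. Haptoglobin (HP), which binds free haemoglobin in plasma, stood at 20116, 15953 and 18108 CPM with the PTPF label and at 7218, 7838 and 7871 CPM with the STATF label. CISH, an inhibitor of cytokine signalling, stood at 118, 109 and 109.9 CPM with the PTPF label and at 47.5, 53.5 and 51.6 CPM with the STATF label. None of the 3 overlapped between the labels. GADD45B, a stress-response protein, averaged 124 ± 10.9 CPM with the PTPF label and 56.9 ± 1.98 CPM with the STATF label, and GALNT15, a glycosyltransferase, 12.1 ± 1.01 and 5.1 ± 0.296 CPM in the same order (SD, n = 3 each). On the same measure SLC39A14 lay at 0.301 from the sum, SLC30A1 at 1.376 and MTF1 at 1.370. The 5 nearest genes were picked for their likeness, so the distances are a description with no test. Values were not centred within each label, so the distance mostly follows the difference between the labels, from which the 10 genes were chosen. HP has a near-identical relative that can share its reads.

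**Figure D4:**
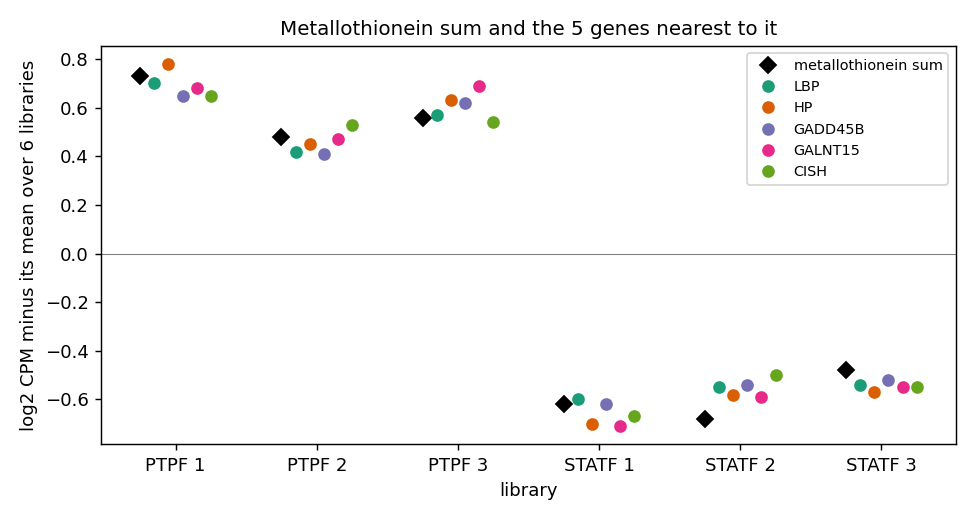
Log2 CPM of the metallothionein sum (diamonds) and of the 5 nearest genes (circles) in each library, each centred on its mean over the 6 libraries. The sum lies at 0.73, 0.48 and 0.56 with the PTPF label and at -0.62, -0.68 and -0.48 with the STATF label. For each of the 5 genes the PTPF-labelled libraries lie above 0 and the STATF-labelled ones below it, which follows from how they were picked.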

How the data were processed

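RNA of 6 HepaRG libraries, 3 labelled PTPF and 3 labelled STATF, was sequenced, and the authors deposited a table of read counts per gene with gene lengths and coordinates. Per the submitters' processing notes, CASAVA 1.8, HISAT2 2.0.5, featureCounts 1.5.0-p3 and GRCh38 were used. For the strand setting and for reads that match several genes, the sources used here give nothing. All gene identifiers were found in GENCODE release 29, and 99.9% had the same position. The deposited counts were tested with edgeR 4.0.16 in R 4.3.3 (filterByExpr, TMM scaling, robust quasi-likelihood fit with group only, Benjamini-Hochberg adjustment over 17844 genes, threshold 0.05), after a check on simulated data. CPM values were TMM-scaled, and levels per kb used the deposited gene length. Total counts of 33225627 to 40796767 per library limit the precision of rare transcripts, and no pair of libraries agreed within sampling noise.

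The members and gene lists were chosen with earlier results of these data known. Named genes were the 10 members, the siRNA targets, up to 4 genes of each list with the smallest adjusted p, the nearest tested flanking gene on each side with flanking genes that passed, and the 5 protein-coding genes nearest in pattern. Alternatives were RLE, upper-quartile and library-total scaling, DESeq2 1.42.0, limma-voom (limma 3.58.1), a replicate block, no filter or a minimum of 50 counts in 3 libraries, each library left out, each metallothionein left out, and mitochondrial counts left out. Motifs were searched in RefSeq promoters with Python 3.11.15.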

Additional observations from a re-analysis of the deposited data

How the results depend on the processing

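The log2 ratio of the metallothionein sum stayed between 1.10 and 1.27 under every alternative, 1.11 to 1.25 with 1 library left out, and the 6 genes called among the 10 stayed at 6. BBS2, which did not pass the test, had a log2 fold change of 0.01 without STATF replicate 3, the opposite sign to its -0.02 with all libraries, and ran from -0.04 to 0.01 with 1 library left out. The other metallothionein loci gave 0 calls with at least 50 counts in 3 libraries, where none could be tested. The other zinc exporters gave 2 calls with library totals as the scaling and 1 to 4 with 1 library left out. With 1 library left out, the promoter factors gave 1 to 3 calls and the metal and oxidant stress genes 4 to 8. Library totals moved the median of all genes to -0.06 and the share of calls that were higher to 28.1% of 4141, against 46.6% of 3863. Library totals also turned the median of the other zinc exporters and of the promoter factors to -0.02 and that of copper handling to -0.06, and without a filter the median of the other SLC39 importers was 0.09. The copper median, 0.01, also changed sign without PTPF replicate 1, STATF replicate 1 or STATF replicate 2. SLC30A1 moved to 0.02 with library totals. Over the named genes and these alternatives, a call was lost 24 times, 6 of them for SLC30A10, which missed the threshold with upper-quartile scaling (edgeR adjusted p = 0.052) and with DESeq2 (0.0654). After the mean of each label was subtracted from each gene, the remaining deviations of same-numbered libraries correlated at 0.035, 0.058 and 0.001. Those of PTPF replicate 3 correlated best with STATF replicate 2 (0.018), so no clear pairing by number was seen. The replicate block gave 4145 calls over all genes and a log2 ratio of 1.19 for the sum. Genes with few counts, MT1G and MT1M among them, could not be compared at this depth.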
